A study of Mus musculus with 12 samples.

Results

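The HoxD cluster is a row of 9 genes on mouse chromosome 2, Hoxd1, Hoxd3, Hoxd4, Hoxd8, Hoxd9, Hoxd10, Hoxd11, Hoxd12 and Hoxd13, and its transcripts were followed here in embryonic fibroblasts that differ in the glucocorticoid receptor. Every non-control probe that the array design names for a HoxD gene was taken, whatever its values, which gave 12 probes for 9 of the 27962 gene names on the array, of 41174 non-control probes. A probe was tested where every array of some group read it well above background, which held for 10 HoxD probes of 8 genes and for 30935 probes in all. The Hoxd1 probe (A_51_P305217) and the more distal of the 2 Hoxd3 probes (A_51_P455040) never rose well above background, so Hoxd1 was not tested.

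The cells were mouse embryonic fibroblasts (MEFs), primary cells grown out of embryos, here of embryonic day 12.5 and a C57Bl/6 background. Homozygous GR-C3 knockin cells carry a changed exon 2 of Nr3c1, the glucocorticoid receptor gene, in which the start codon of the GR-C3 isoform is left and the start codons of the other translational isoforms are mutated. The line goes back to 1 targeted embryonic stem cell clone, its hygromycin cassette was removed by crossing to Flp-deleter mice, and the wild-type (WT) cells came from the same intercrosses. The 4 groups were GR-C3 cells given vehicle, WT cells given vehicle, GR-C3 cells given 100 nM dexamethasone (Dex, a synthetic glucocorticoid) and WT cells given 100 nM Dex, each for 6 hours and each on 3 arrays of 1 colour. By the labels the 3 arrays of each group are biological replicates, with no word on the embryos or cultures behind them, so the p-values measure the spread between these arrays, which may be technical.

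Hox genes encode homeodomain transcription factors that give cells along the body axis and the limb their positional identity. Within a cluster the genes are switched on in order of position, from the anterior genes such as Hoxd1 and Hoxd3 to the posterior genes Hoxd9 to Hoxd13, which belong to the Abdominal-B class and act in the trunk end, the limb and the digits. Cultured fibroblasts are known to keep a Hox pattern that reflects the body site they came from.

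The arrays of all 4 groups were comparable in signal. The 75th percentile of the processed signal lay between 884 and 1821 over the 12 arrays, and between 71.3% and 79% of spots were well above background. Values below are log2 signal relative to the 75th percentile of the same array, so 0 is the level of that percentile. WT vehicle replicate 1, the only array on its slide, stood apart: its median correlation with the other arrays of its group was 0.982, and Fkbp5, an FK506-binding protein and a textbook glucocorticoid target, was at 1.51 on it, against -2.64 and -2.74 on the other WT vehicle arrays and 1.89 to 2.15 on the WT Dex arrays. With 12 arrays none of 5 glucocorticoid target genes was called for Dex in either genotype, and without that array all 5 were called in both, 4 higher and 1 lower. Every result is therefore also given without that array where it matters. The 4 Nr3c1 probes differed between GR-C3 and WT cells by -0.19 to 0.29 over both treatments, and none was called. The knockin changes start codons, so a probe for the transcript does not check the genotype label.

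The cells carried fibroblast transcripts in every group. The summed linear signal of the 10 fibroblast markers, in multiples of the 75th percentile of the array, was 1150 to 1420 on GR-C3 vehicle arrays, 1040 to 1250 on WT vehicle arrays, 1220 to 1330 on GR-C3 Dex arrays and 1160 to 1490 on WT Dex arrays. Of the markers of other cells, Cdh1 and Epcam (epithelium) and Pecam1, Cdh5 and Tie1 (endothelium) did not pass the background filter in any group. The epithelial markers Krt5, Krt8, Krt14 and Krt18 and the endothelial markers Kdr, Emcn and Tek did pass it. So did most markers of cartilage, neural crest, muscle and neural cells, whose values differed between genotypes and are given below.

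These 5 HoxD probes are shown because the genes are paralogs with alike stretches, the homeobox among them. Whether a probe lies in the homeobox was not determined. Capitals mark the longest run of letters that the probe shares with any probe of another Hox gene on the array, on the probe strand and 5′ to 3′. Positions are those of the array files, build mm7.
Hoxd13 probe 1 (A_51_P284571, chr2:74513664-74513723): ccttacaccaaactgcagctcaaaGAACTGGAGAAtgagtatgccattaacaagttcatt
Hoxd12 (A_51_P479406, chr2:74518833-74518892): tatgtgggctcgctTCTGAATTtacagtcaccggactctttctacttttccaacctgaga
Hoxd10 (A_52_P407049, chr2:74537939-74537998): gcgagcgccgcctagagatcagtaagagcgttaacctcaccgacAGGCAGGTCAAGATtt
Hoxd9 probe 1 (A_51_P430728, chr2:74542992-74543051): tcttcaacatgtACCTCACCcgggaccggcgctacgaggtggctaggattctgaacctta
Hoxd3 probe 1 (A_52_P209132, chr2:74588190-74588249): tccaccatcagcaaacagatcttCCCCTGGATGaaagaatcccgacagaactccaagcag
The longest shared run was 14 of 60 bases, between the Hoxd10 probe and a Hoxa9 probe, and the 12 HoxD probes shared at most 8 to 14 bases with a probe of another Hox gene. This comparison covers the letters of the probes only. It does not cover the full transcripts of the paralogs, so it cannot tell whether a probe also binds them. Cross-hybridisation between paralogs was not tested.

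The first question was how the HoxD transcripts of GR-C3 cells compared with those of WT cells without hormone. In vehicle, 8 of 10 HoxD probes, for 6 of 8 genes, were higher in GR-C3 cells and none was lower, at an adjusted p under 0.05 from limma over all kept probes, where 13.1% of all kept probes were called higher and 10.3% lower. Of the posterior genes of the limb and trunk end, Hoxd13 was 56.5-fold higher on probe 2 and Hoxd10 6.01-fold. Hoxd11 was at least 7.50-fold higher on the processed signal, a bound that does not hold for every background correction. Hoxd9, Hoxd8 and Hoxd4 were 2.53-fold to 3.92-fold higher by probe. Hoxd12 and Hoxd3 were not called. Among the probes counted as higher, Hoxd11 and the other Hoxd13 probe passed the background filter through GR-C3 groups only. They could enter the tested set only by being well above background in GR-C3 cells. The same limit applies to the counts, medians and rank correlations over the tested HoxD probes given below.

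Under Dex, again 8 of 10 probes for 6 of 8 genes were higher in GR-C3 cells and none was lower, against 16.4% of all kept probes called higher and 11.3% lower. Over both treatments, 9 of 10 probes were called higher and none lower, against 25.1% and 16.4% of all kept probes, and the median difference of the 10 probes was 1.76 on the log2 scale, against 0.10 over all kept probes. A call combined with a difference of at least 2-fold was reached by 8 of the 10 HoxD probes and by 2.56% of all kept probes. The GR-C3 arrays lay above every WT array of the same treatment for 8 HoxD probes under vehicle and for 8 under Dex, as they did for 24.6% and 30.5% of all kept probes. Without WT vehicle replicate 1 the counts of HoxD probes called higher were again 8, 8 and 9 of 10, where 14.7%, 23.3% and 28.7% of all kept probes were called higher. Background correction with the local background as scanned (normexp) left 1, 0 and 1 of 10. There 365, 364 and 2000 of the 30935 kept probes were called in either direction. The same correction with outlying local backgrounds replaced gave 8, 7 and 8, where 5882, 5989 and 10440 of all kept probes were called. With those replaced the fitted differences were smaller, 4.39 and 1.63 for Hoxd13, 1.20 for Hoxd11 and 1.61 for Hoxd10 over both treatments.

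**Figure D1:**
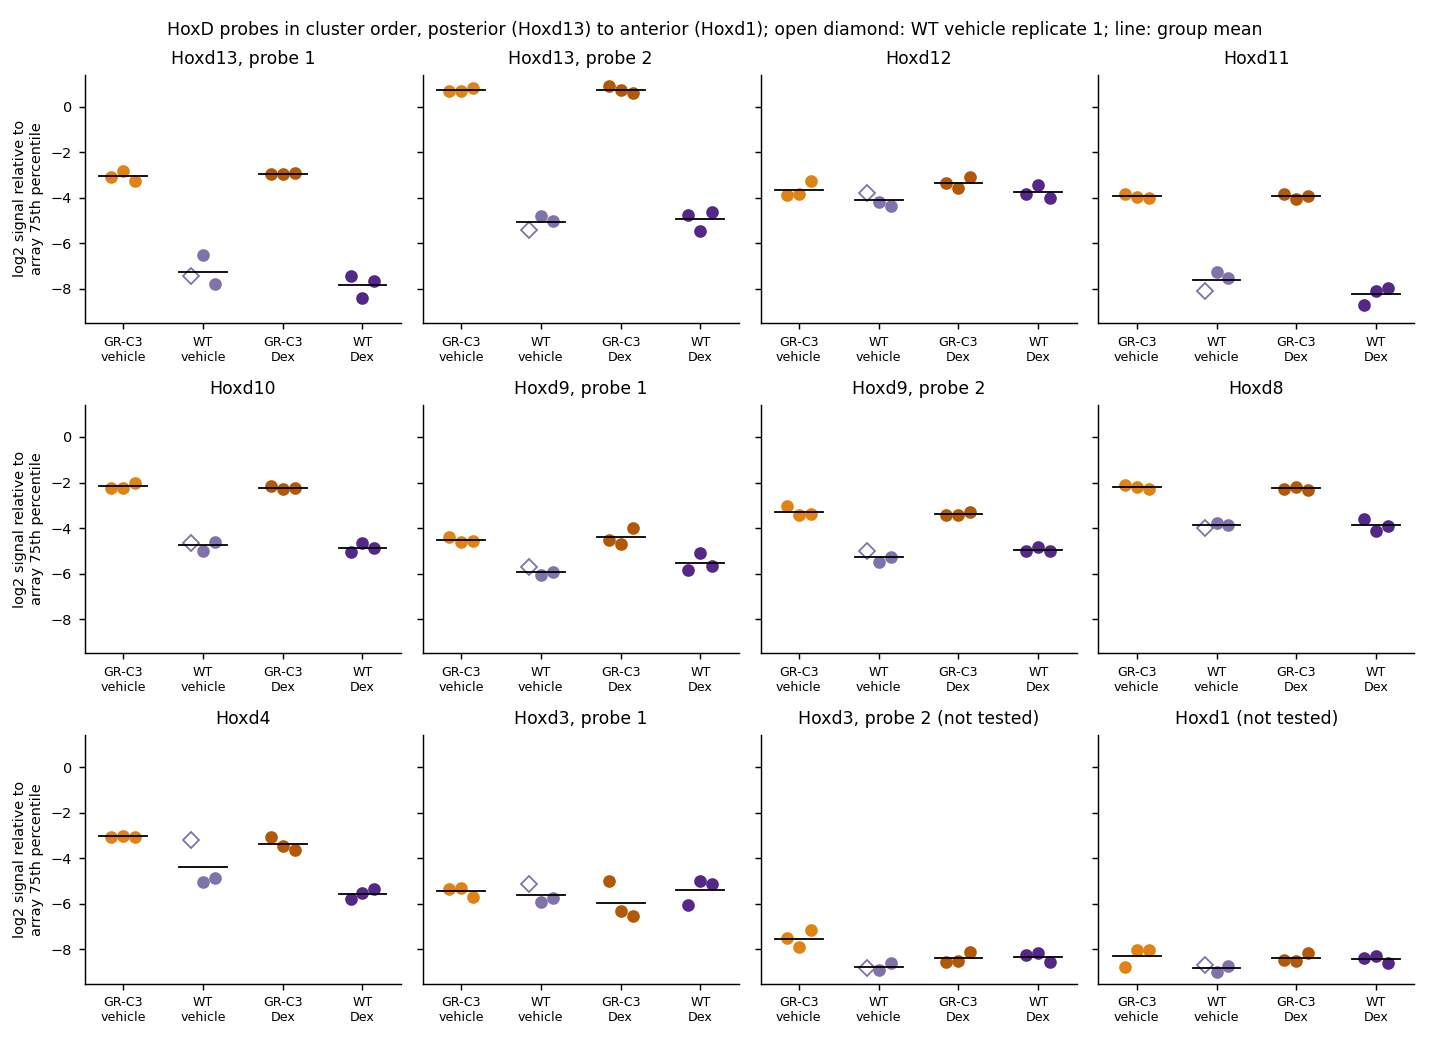
Log2 signal, scaled so that 0 is the array's 75th percentile (y axis), for the 12 HoxD probes in cluster order, 3 arrays per group (points) with the group mean (line); the open diamond is WT vehicle replicate 1. Hoxd13, Hoxd11, Hoxd10, Hoxd9 and Hoxd8 of GR-C3 arrays sit above all WT arrays, Hoxd4 does so except that GR-C3 Dex replicates 2 and 3 lie below WT vehicle replicate 1, and Hoxd12 and Hoxd3 overlap.

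Hoxd13, at the posterior end of the cluster and required for digit formation, showed the largest difference of the cluster among probes well above background on every array. Hoxd13 probe 2 (A_52_P591310, chr2:74514907-74514966) read 0.71, 0.68 and 0.84 on the GR-C3 vehicle arrays, against -5.41, -4.81 and -5.01 on the WT vehicle arrays. Under Dex it read 0.92, 0.73 and 0.60 in GR-C3 cells, against -4.73, -5.45 and -4.60 in WT cells. All 6 GR-C3 arrays were high, all 6 WT arrays were low, and the gap between the nearest arrays was 5.20. The difference was 5.82 under vehicle (SE 0.22, limma adjusted p = 7.18e-08) and 5.68 under Dex (SE 0.22, limma adjusted p = 1.16e-07), which is 53.8-fold over both treatments.

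Hoxd13 probe 1, shown above, gave the same order with a fainter signal. It read -3.09, -2.83 and -3.25 on the GR-C3 vehicle arrays, against -7.42, -6.52 and -7.80 on the WT vehicle arrays. Under Dex it read -2.97, -2.97 and -2.92 in GR-C3 cells, against -7.42, -8.39 and -7.65 in WT cells. Of the WT arrays only WT vehicle replicate 2 was well above background for this probe. Under vehicle, with 1 of 3 WT arrays well above background, the fitted difference was 4.19 (SE 0.31, limma adjusted p = 5.84e-06), and it was 1.71 with normexp and outlying local backgrounds replaced. Under Dex the probe was at least 11.4-fold higher in GR-C3 cells on the processed signal (limma adjusted p = 2.25e-06). This bound sets the dim probe on each array at the lowest signal measured well above background there, or at its own value if higher. With normexp and outlying local backgrounds replaced, the fitted log2 difference under Dex was 1.55, smaller than the bound. The 2 Hoxd13 probes correlated at r = 0.987 over the 12 arrays, which share the 4 groups.

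Hoxd12, the neighbour of Hoxd13 and also a posterior gene, was not called in either treatment. It read -3.86, -3.83 and -3.27 in GR-C3 vehicle cells, against -3.77, -4.19 and -4.35 in WT vehicle cells. Under Dex it read -3.36, -3.55 and -3.10 in GR-C3 cells, against -3.85, -3.44 and -3.99 in WT cells. The arrays of the genotypes overlapped in both treatments although all 12 were well above background. The difference was 0.45 under vehicle (limma adjusted p = 0.162), 0.42 under Dex (limma adjusted p = 0.167) and 0.44 over both (SE 0.15, limma adjusted p = 0.0411). The last call was lost when any of 7 arrays was left out, with the slide as a block (0.05, limma adjusted p = 0.93) and under quantile normalization (limma adjusted p = 0.053). Without WT vehicle replicate 1, the vehicle arrays did not overlap and the difference there was 0.62 (limma adjusted p = 0.0629). Over both treatments it was then 0.52 (limma adjusted p = 0.0158).

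Hoxd11, which shapes the forearm together with its HoxA paralog, was well above background in GR-C3 cells only. Its probe (A_51_P112319, chr2:74527687-74527746) read -3.83, -3.95 and -4.02 in GR-C3 vehicle cells, against -8.07, -7.27 and -7.51 in WT vehicle cells. On the Dex arrays it read -3.85, -4.07 and -3.90 in GR-C3 cells, against -8.69, -8.08 and -7.96 in WT cells. All 6 GR-C3 arrays and none of the 6 WT arrays were well above background. On the processed signal Hoxd11 was at least 7.50-fold higher in GR-C3 cells under vehicle (limma adjusted p = 1.63e-06). Under Dex it was at least 5.75-fold higher (limma adjusted p = 5.5e-07). With normexp and outlying local backgrounds replaced, the fitted log2 differences were 1.26 under vehicle and 1.14 under Dex. These are smaller than the bounds, which hold for the processed signal only.

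Hoxd10, a posterior gene with roles in the hindlimb and the lumbar spinal cord, was well above background on every array. It read -2.25, -2.25 and -2.00 in GR-C3 vehicle cells, against -4.64, -5.02 and -4.60 in WT vehicle cells. With Dex the probe read -2.17, -2.30 and -2.25 in GR-C3 cells, against -5.07, -4.64 and -4.89 in WT cells. The groups were separated by at least 2.30. The difference was 6.01-fold under vehicle (log2 2.59, SE 0.15, limma adjusted p = 1.22e-06) and 6.17-fold under Dex (log2 2.63, SE 0.15, limma adjusted p = 1.23e-06).

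Hoxd9, the most anterior gene of the Abdominal-B class in the cluster, was higher in GR-C3 cells on both of its probes. Probe 2 (A_52_P385584, chr2:74543335-74543394) read -3.04, -3.44 and -3.39 in GR-C3 vehicle cells, against -5.00, -5.50 and -5.27 in WT vehicle cells. Dex arrays read -3.42, -3.42 and -3.30 in GR-C3 cells, against -5.01, -4.82 and -5.01 in WT cells. No GR-C3 array reached down to a WT array. The difference was 1.97 under vehicle (SE 0.15, limma adjusted p = 6.57e-06) and 1.56 under Dex (SE 0.15, limma adjusted p = 3.21e-05).

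Hoxd9 probe 1 was likewise called in both treatments, with smaller differences. It read -4.39, -4.62 and -4.57 in GR-C3 vehicle cells, against -5.73, -6.08 and -5.93 in WT vehicle cells. In the Dex groups it read -4.52, -4.70 and -4.00 in GR-C3 cells, against -5.84, -5.11 and -5.66 in WT cells, where WT Dex replicate 2 came within 0.41 of the nearest GR-C3 array. The difference was 1.38 under vehicle (limma adjusted p = 0.00104) and 1.13 under Dex (limma adjusted p = 0.00311). With the slide as a block it was 1.04 over both treatments and no longer called (limma adjusted p = 0.0758). The 2 Hoxd9 probes correlated at r = 0.957 over the 12 arrays.

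Hoxd8, a central gene of the cluster, was higher in GR-C3 cells in both treatments. Its probe (A_52_P485542, chr2:74550680-74550739) read -2.11, -2.20 and -2.30 in GR-C3 vehicle cells, against -3.98, -3.79 and -3.85 in WT vehicle cells. Dex-treated cells read -2.27, -2.19 and -2.33 in GR-C3 cells, against -3.58, -4.14 and -3.89 in WT cells. The groups did not overlap, and the difference was 3.19-fold under vehicle (limma adjusted p = 1.19e-05) and 3.05-fold under Dex (limma adjusted p = 1.65e-05).

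Hoxd4, an anterior gene with roles in the cervical vertebrae and the hindbrain, was the member in which WT vehicle replicate 1 mattered most. Its probe (A_51_P260265, chr2:74572525-74572584) read -3.06, -3.01 and -3.05 in GR-C3 vehicle cells, against -3.19, -5.06 and -4.89 in WT vehicle cells. With Dex it was at -3.09, -3.47 and -3.62 in GR-C3 cells, against -5.80, -5.52 and -5.37 in WT cells. WT vehicle replicate 1 read like the GR-C3 arrays, and the other 5 WT arrays lay well below them. The difference under vehicle was 1.34 with all arrays (SE 0.39, limma adjusted p = 0.0297) and 1.93 without that array (SE 0.17, limma adjusted p = 3.61e-05). Leaving out any of the other 5 vehicle arrays gave 0.997 to 1.35 and lost the call under vehicle. Under Dex the difference was 2.17 (SE 0.39, limma adjusted p = 0.0023).

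Hoxd3, an anterior gene that patterns the atlas and axis, was not called in either treatment. Probe 1 read -5.36, -5.29 and -5.70 in GR-C3 vehicle cells, against -5.14, -5.92 and -5.76 in WT vehicle cells. On Dex arrays the probe gave -4.99, -6.33 and -6.52 in GR-C3 cells, against -6.08, -4.99 and -5.13 in WT cells, and only 1 of the 3 GR-C3 Dex arrays was well above background. The groups overlapped in both treatments, under vehicle only through WT vehicle replicate 1. The difference over both treatments was -0.20 (SE 0.28, limma adjusted p = 0.605), with a 95% confidence interval of -0.82 to 0.43. Under Dex it was -0.55 (limma adjusted p = 0.324) and became -1.03 (limma adjusted p = 0.0479) without GR-C3 Dex replicate 1. Hoxd3 probe 2 read -7.91 to -7.17 in GR-C3 vehicle cells, against -8.90 to -8.61 in WT vehicle cells, and -8.56 to -8.12 in GR-C3 Dex cells, against -8.54 to -8.17 in WT Dex cells, all without a signal well above background. Hoxd1, the most anterior gene, read -8.79 to -8.02 in GR-C3 vehicle cells, against -9.01 to -8.71 in WT vehicle cells, and -8.50 to -8.18 in GR-C3 Dex cells, against -8.60 to -8.29 in WT Dex cells, likewise at background.

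In the genes called under vehicle and under Dex, the group means fell into 2 tiers, both GR-C3 groups above both WT groups. For Hoxd4 the single arrays crossed the tiers, as WT vehicle replicate 1 read among the GR-C3 arrays. Hoxd12, called over both treatments only, was less clearly split, with means of -3.65 in GR-C3 vehicle and -3.76 in WT Dex cells. Within a tier, limma on the 12 arrays called no difference between the vehicle and Dex means. The bulk signal of a culture does not tell a change in the number of cells that hold a transcript from a change in transcript per cell.

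**Figure D2:**
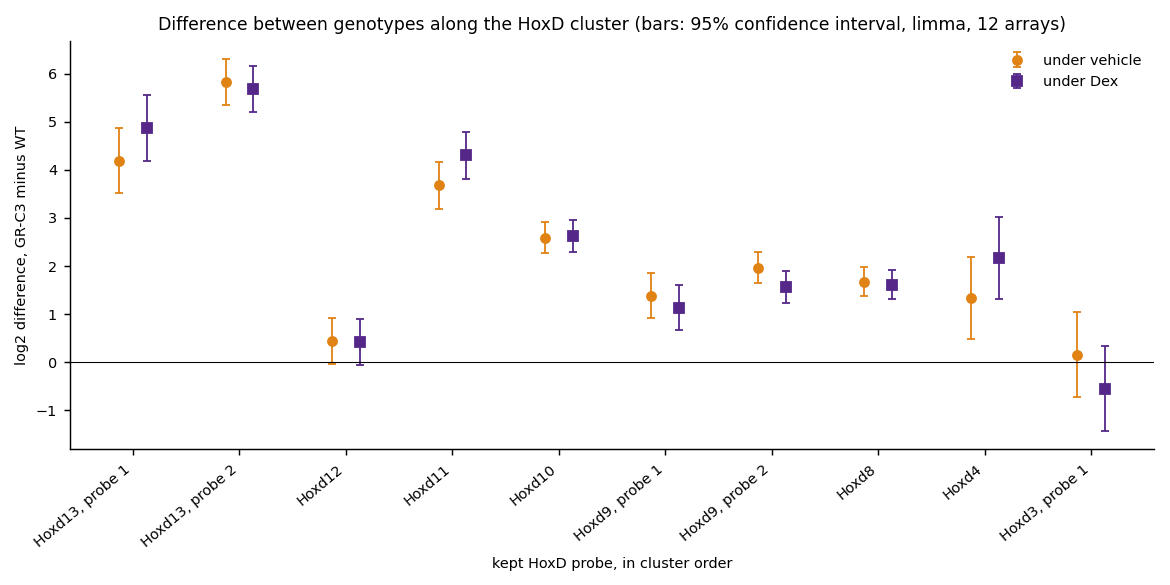
Log2 difference, GR-C3 minus WT (y axis), for the 10 tested HoxD probes in cluster order from Hoxd13 to Hoxd3, under vehicle (circles) and under Dex (squares), with 95% confidence intervals from limma. The difference is 5.82 and 5.68 at Hoxd13 probe 2 and is 0.45 and 0.42 at Hoxd12, under vehicle and under Dex; the points of Hoxd13 probe 1 and Hoxd11 are fitted against WT signals mostly not well above background.

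Along the cluster the fitted difference was larger toward the posterior end, with Hoxd12 outside the order. Spearman's rho between the difference over both treatments and the paralog number was 0.677 over the 10 probes and 0.908 over the 9 probes other than Hoxd12, as a description of probes that share the same arrays. Hoxd12 was left out there after its values were seen. The 7 probes of paralogs 9 to 13 had a median difference of 2.61, and the 3 tested probes of paralogs 1 to 8 had 1.64. The values of Hoxd11 and of Hoxd13 probe 1 in these summaries are fitted against WT signals that were mostly not well above background, so their place in the order is uncertain.

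The HoxD cluster did not stand alone among the Hox clusters. Over both treatments, 11 of 14 HoxA probes were higher and 2 were lower in GR-C3 cells. In HoxB 10 of 11 probes were higher and in HoxC 6 of 8, where 25.1% of all kept probes were called higher and 16.4% lower. The median differences of HoxA, HoxB and HoxC were 1.11, 1.71 and 1.40. The lower probes included that of the anterior gene Hoxa2 (-1.96, limma adjusted p = 1.11e-07). Among the most clearly called paralogs were Hoxa10 (2.27, limma adjusted p = 5.67e-09), Hoxb7 (2.17, limma adjusted p = 1.31e-08) and Hoxc9 (2.30, limma adjusted p = 1.28e-08). The order by paralog number was seen in HoxA (rho 0.853 over 14 probes) while rho was 0.356 over 11 probes in HoxB and -0.275 over 8 in HoxC. The higher Hoxa13 probe and the tested Hoxb8 probe, both counted as higher, passed the background filter through GR-C3 groups only. They enter these counts, medians and rank correlations with fitted values. Whether the order differs between clusters was not tested.

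**Figure D3:**
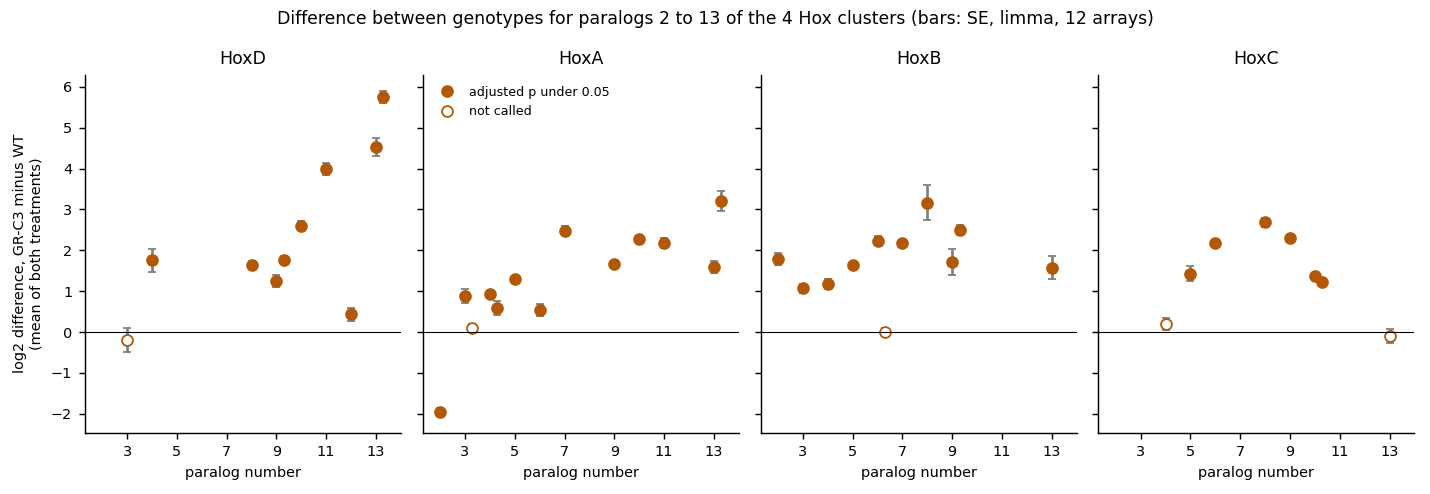
Log2 difference, GR-C3 minus WT, over both treatments (y axis) against paralog number (x axis) for the tested probes of paralogs 2 to 13 of the 4 Hox clusters, with SE from limma; open points were not called. HoxD is at 5.75 for Hoxd13 probe 2 and at -0.20 for Hoxd3; for probes not well above background in WT cells (Hoxd11, Hoxd13 probe 1 and the higher Hoxa13 probe among them) the point is a fitted value and not a measured size.

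The transcripts next to the cluster were described to see where the difference ends. The tested probes of Lnpk (3 probes) and Evx2, which flank the posterior side, and of Mtx2 (2 probes), which flanks the anterior side, differed by 0.00 to 0.14 over both treatments, and none was called. Inside the cluster, the tested probe of Hoxd3os1, a transcript antisense to the Hoxd3 region, was 0.64 higher in GR-C3 cells over both treatments (SE 0.09, limma adjusted p = 0.000331), 0.92 under vehicle (limma adjusted p = 0.000647) and 0.35 under Dex, where it was not called (limma adjusted p = 0.0703), with a signal above background on 5 of 6 GR-C3 arrays and 2 of 6 WT arrays. The Hoxd3os1 probe passed the background filter through the GR-C3 Dex group only. Its differences are fitted against WT signals mostly not well above background and are not measured sizes. These flanking and antisense probes were chosen for their position after values were seen. Of the 9 neighbouring genes tested, 2 were higher and 1 was lower, no larger shares than the 25.1% and 16.4% of all kept probes. The higher ones were Chrna1 (1.05), a muscle acetylcholine receptor subunit, and Hnrnpa3 (0.63), an RNA-binding protein. Chn1, a Rac-regulating protein, was lower (-1.09), and 6 were not called.

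Hox proteins bind DNA together with TALE homeodomain partners of the Pbx, Meis and Pknox families. Of 9 such genes, 5 were lower in GR-C3 cells, 1 was higher and 3 were not called, where 16.4% of all kept probes were called lower. Meis1 differed by -1.57 (SE 0.10, limma adjusted p = 8.79e-07), Pbx3 by -0.96 and Meis2 by -0.82, and Pknox1 by 0.56 in the other direction. The gene list median was -0.48, against 0.10 over all kept probes.

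Polycomb proteins keep silent Hox genes repressed and Trithorax proteins keep active ones on. Of 22 Polycomb genes, 7 were higher, 5 were lower and 10 were not called in GR-C3 cells, with a median difference of 0.06, where 25.1% of all kept probes were called higher and 16.4% lower. Ezh2, the main H3K27 methyltransferase, differed by 0.57 (limma adjusted p = 0.000117), its relative Ezh1 by -0.98, and the chromobox gene Cbx7 by -1.28. Of 14 genes for Trithorax proteins, cohesin and Ctcf, 2 were higher, Ash2l (0.39) and Wdr5 (0.22), none was lower and 12 were not called, against 25.1% and 16.4% of all kept probes.

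Of 23 tested genes that set up limb and axial position, 10 were higher in GR-C3 cells, 6 were lower and 7 were not called, with a median of 0.26, beside the same 25.1% higher and 16.4% lower over all kept probes. Tbx4 and Pitx1 mark the hindlimb. Tbx4 was called higher (limma adjusted p = 1.18e-06), with a fitted difference of 3.62 (SE 0.25). Only 2 of 6 WT arrays were well above background for Tbx4, so it passed the filter through GR-C3 cells only. Its fitted value is therefore not a measured size. Pitx1 differed by 1.61 (SE 0.08, limma adjusted p = 8.99e-08). Aldh1a2, a retinoic acid synthesising enzyme, differed by 2.55 and Rarb, a retinoic acid receptor, by 1.64. The genes given with values here were all higher, and none of the 6 lower genes is named, so they do not stand for the list. Shh, Cdx1, Cdx2 and Cdx4 were not above background in any group.

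Other transcripts moved with genotype as well, and their part in the HoxD result was not tested. Over both treatments, where 25.1% of all kept probes were called higher and 16.4% lower, all 5 tested chondrocyte markers were lower in GR-C3 cells, with the cartilage collagen Col2a1 at -3.33, and Matn1 did not pass the filter. Their summed linear signal, in multiples of the 75th percentile of the array, was 6.08 to 6.32 on GR-C3 vehicle arrays, against 44.2 to 49 on WT vehicle arrays, and 5.97 to 6.3 on GR-C3 Dex arrays, against 48.8 to 57.8 on WT Dex arrays. All 5 neural crest and Schwann cell markers were higher, with the neuregulin receptor gene Erbb3 at 2.33. The sums of these markers were 1.3 to 1.43 on GR-C3 vehicle arrays, against 0.349 to 0.451 on WT vehicle arrays, and 1.3 to 1.36 on GR-C3 Dex arrays, against 0.392 to 0.491 on WT Dex arrays. Of 5 skeletal muscle markers tested, 4 were higher, with the filament gene Des at 3.42, 1 was not called, and Myf5 did not pass the filter. The muscle sums were 61.4 to 75.8 on GR-C3 vehicle arrays, against 37.4 to 44.8 on WT vehicle arrays, and 69.2 to 78.5 on GR-C3 Dex arrays, against 42.9 to 52.8 on WT Dex arrays. Of 5 neural markers tested, 4 were higher, with Nes at 1.68, 1 was not called, and Dcx did not pass the filter. The neural sums were 11.4 to 12.7 on GR-C3 vehicle arrays, against 5.3 to 6.4 on WT vehicle arrays, and 11.4 to 12.5 on GR-C3 Dex arrays, against 5.98 to 7.1 on WT Dex arrays. Of 3 endothelial markers tested, Kdr and Emcn were higher by 1.92 each and Tek was not called. The endothelial sums were 1.92 to 2.13 on GR-C3 vehicle arrays, against 0.594 to 0.785 on WT vehicle arrays, and 2.38 to 2.57 on GR-C3 Dex arrays, against 0.627 to 0.738 on WT Dex arrays. Of 4 epithelial markers tested, Krt18 (2.39) and Krt8 (0.55) were higher, Krt14 (-0.45) was lower and Krt5 was not called. The epithelial sums were 2.28 to 2.6 on GR-C3 vehicle arrays, against 0.765 to 0.873 on WT vehicle arrays, and 1.79 to 1.93 on GR-C3 Dex arrays, against 0.611 to 0.877 on WT Dex arrays. Of 5 macrophage markers tested, Ptprc (-1.15) was lower and 4 were not called, and of 3 erythroid markers none was called. Macrophage and erythroid sums overlapped between the genotypes in both treatments. Of the 10 fibroblast markers 3 were lower in GR-C3 cells (Dcn by -0.91) and 7 were not called.

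Genes of the sex chromosomes split the arrays by genotype. Xist, the transcript of the inactive X chromosome, was well above background on all 6 GR-C3 arrays and on none of the 6 WT arrays for 3 of its 4 probes, and the other probe, read well above background everywhere, was 1.56 higher in GR-C3 cells. The tested probes of the Y-linked genes Ddx3y and Uty were well above background on none of the 6 GR-C3 arrays and on all 6 WT arrays, that of Eif2s3y on 1 of 6 GR-C3 arrays and on all 6 WT arrays, and Kdm5d, measured on every array, differed by -3.66. The sex of the cells, as these transcripts show it, and the genotype cannot be told apart in the HoxD result.

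The slides of the arrays also moved with genotype. No slide held both genotypes under 1 treatment, so no within-slide value of either comparison can be had. Slide 3 held 2 GR-C3 vehicle and 2 WT Dex arrays, and there the HoxD differences, GR-C3 vehicle minus WT Dex, were 5.72 for Hoxd13 probe 2, 2.51 for Hoxd10, 1.67 and 0.88 for Hoxd9, 1.86 for Hoxd8, 2.41 for Hoxd4, -0.13 for Hoxd12 and -0.26 for Hoxd3. Hoxd13 probe 1 and Hoxd11 were not well above background on the WT Dex arrays, so no size is given for them there. With the slide as a block in the fit, 7 of 10 probes stayed called over both treatments. There 4936 of the 30935 kept probes were called in either direction. Hoxd13 probe 2 then differed by 5.77 (SE 0.33, limma adjusted p = 0.000139).

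The second question was whether Dex changed HoxD transcripts within a genotype. In the fit on 12 arrays none of the 10 HoxD probes was called, in GR-C3 cells or in WT cells, where 0.11% and 0.0485% of all kept probes were called by limma. At an unadjusted p under 0.05 there were 0 HoxD probes in GR-C3 cells and 2 in WT cells, Hoxd11 and Hoxd4, where 11% and 16.7% of all kept probes had one. Hoxd11 was well above background on no WT array, so its Dex change in WT cells is not a measured one. The Dex changes of the 10 probes ran from -0.50 to 0.31 in GR-C3 cells and from -1.19 to 0.38 in WT cells.

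The intervals show which Dex changes these arrays leave possible. Hoxd13 probe 2 changed by 0.01 with Dex in GR-C3 cells (95% confidence interval -0.47 to 0.49) and by 0.15 in WT cells (-0.33 to 0.63). Hoxd10 changed by -0.07 in GR-C3 cells (-0.40 to 0.25) and by -0.11 in WT cells (-0.44 to 0.21). Hoxd8 changed by -0.06 in GR-C3 cells (-0.36 to 0.24) and by 0.00 in WT cells (-0.30 to 0.31). All 6 intervals hold 0, and none shows that Dex has no effect. Without WT vehicle replicate 1, Hoxd13 probe 2 changed by -0.02 in WT cells (-0.51 to 0.47). Hoxd10 then changed there by -0.05 (-0.41 to 0.30) and Hoxd8 by -0.05 (-0.38 to 0.28), and these intervals hold 0 as well.

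Without WT vehicle replicate 1, the WT comparison called 2 HoxD probes lower under Dex and none higher, where 6.35% of all kept probes were called lower. Hoxd4 fell by 0.59 on the log2 scale (SE 0.17, limma adjusted p = 0.0494), with -5.80, -5.52 and -5.37 on the WT Dex arrays, against -5.06 and -4.89 on the remaining WT vehicle arrays. The other called probe was Hoxd11 (limma adjusted p = 0.0206), which was below background in both WT groups, so no fold is given. In this WT comparison 4 HoxD probes had an unadjusted p under 0.05, against 27.4% of all kept probes. Among them Hoxd9 probe 2 (0.44, limma adjusted p = 0.067) and Hoxd12 (0.51, limma adjusted p = 0.168) were higher under Dex and not called. In GR-C3 cells Hoxd4 differed by -0.35 with Dex (limma adjusted p = 0.269 without that array), and no HoxD probe was called, against 2.93% of all kept probes, while 1 had an unadjusted p under 0.05, against 17% of all kept probes.

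The third question was whether the Dex change differed between genotypes. None of the 10 HoxD probes was called by limma for the difference between GR-C3 and WT in the Dex change, and 0% of all kept probes were called. At an unadjusted p under 0.05 there were 0 HoxD probes, and 6.16% of all kept probes. Without WT vehicle replicate 1 none of the 10 was called either, 2 had an unadjusted p under 0.05 (Hoxd11 and Hoxd9 probe 2), against 14.3% of all kept probes, and 0.882% of all kept probes were called. The Hoxd11 value there rests on WT signals that were not well above background.

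**Figure D4:**
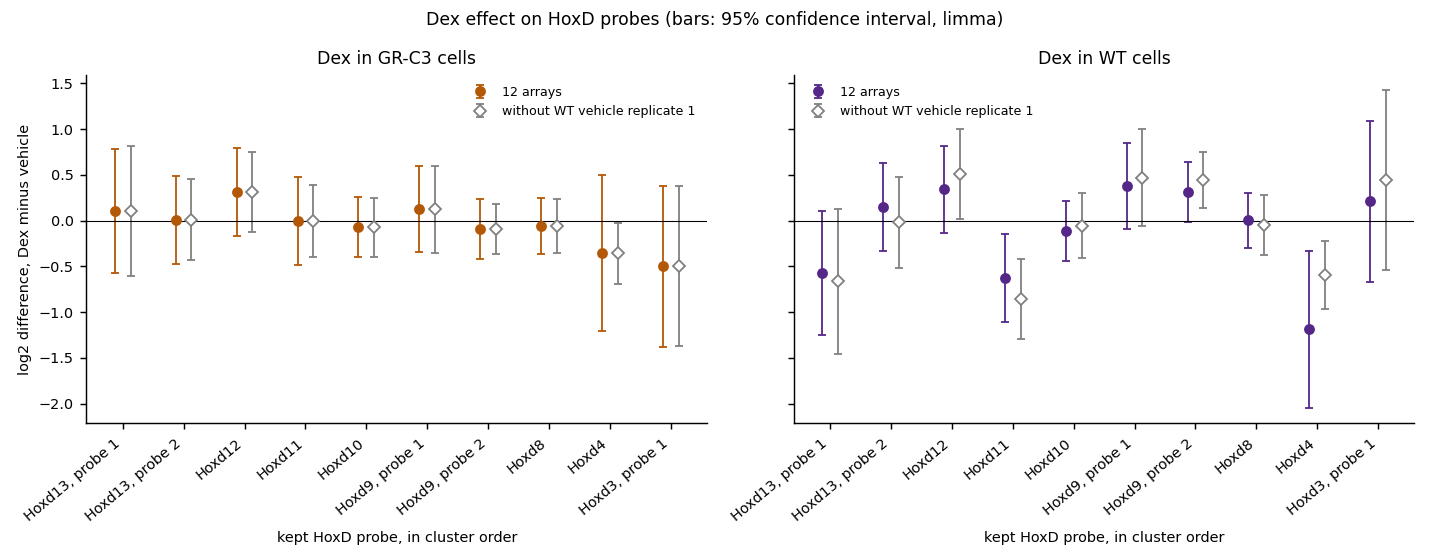
Log2 difference, Dex minus vehicle (y axis), for the 10 tested HoxD probes in GR-C3 cells (left) and WT cells (right), with 95% confidence intervals from limma on 12 arrays (filled) and without WT vehicle replicate 1 (open diamonds). In GR-C3 cells the values run from -0.50 to 0.31, and in WT cells Hoxd4 is at -1.19 with all arrays and at -0.59 without that array.

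Promoter sequences of HoxD members are shown because several members were higher together and the receptor is a DNA-binding factor. The windows run from 250 bases before to 50 bases after the gene start in RefSeq, build GRCm38.p6, plus strand, and 10 windows matched the 9 genes, since Hoxd11 has 2. Capitals mark matches of 4 motifs searched on both strands, none of which contains another. The motif AGAACA is an arm of the palindromic element that the glucocorticoid receptor binds. The motif TATAAA is found in many promoters where the basal transcription machinery binds. The motif CACGTG is an E-box, bound by helix-loop-helix factors. The motif TAATTA is a core bound by many homeodomain proteins.
Hoxd13 (chr2:74667975-74668274): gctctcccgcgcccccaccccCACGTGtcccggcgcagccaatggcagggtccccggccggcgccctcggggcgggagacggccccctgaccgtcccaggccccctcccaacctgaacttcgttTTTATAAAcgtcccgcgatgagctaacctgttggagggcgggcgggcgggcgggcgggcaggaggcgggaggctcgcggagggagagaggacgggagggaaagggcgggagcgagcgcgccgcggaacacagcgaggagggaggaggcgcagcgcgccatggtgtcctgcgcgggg
Hoxd11, the window nearer Hoxd10 (chr2:74682073-74682372): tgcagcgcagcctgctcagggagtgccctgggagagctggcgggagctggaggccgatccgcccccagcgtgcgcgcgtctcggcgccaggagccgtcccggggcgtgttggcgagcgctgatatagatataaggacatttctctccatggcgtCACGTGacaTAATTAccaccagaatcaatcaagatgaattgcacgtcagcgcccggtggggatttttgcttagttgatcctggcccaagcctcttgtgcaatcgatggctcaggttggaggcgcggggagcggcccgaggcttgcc
Hoxd4 (chr2:74721728-74722027): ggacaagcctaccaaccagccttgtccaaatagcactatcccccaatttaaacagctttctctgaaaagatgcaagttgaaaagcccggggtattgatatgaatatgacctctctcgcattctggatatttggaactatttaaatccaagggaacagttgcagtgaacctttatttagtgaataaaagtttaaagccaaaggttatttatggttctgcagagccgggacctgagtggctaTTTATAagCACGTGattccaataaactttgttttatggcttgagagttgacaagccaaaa
Hoxd3 (chr2:74711743-74712042): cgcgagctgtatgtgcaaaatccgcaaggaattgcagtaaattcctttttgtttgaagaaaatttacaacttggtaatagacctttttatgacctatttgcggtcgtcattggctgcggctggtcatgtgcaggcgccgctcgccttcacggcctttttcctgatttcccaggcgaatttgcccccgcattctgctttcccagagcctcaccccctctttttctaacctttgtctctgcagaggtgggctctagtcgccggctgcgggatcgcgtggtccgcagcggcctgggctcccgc
The receptor motif AGAACA was in 0 of 10 HoxD windows, against 19% of all 32851 windows. CACGTG was in 5 of 10 HoxD windows, those of Hoxd13, Hoxd11, Hoxd10, Hoxd4 and Hoxd1, against 7.15% of all windows. TATAAA was in 2, those of Hoxd13 and Hoxd4, against 13.6%, and TAATTA in 2, both of Hoxd11, against 5.29%. The Hoxd12, Hoxd9, Hoxd8 and Hoxd3 windows held none of these motifs, and they include both called and uncalled genes. A match or its absence describes the letters of these windows only.

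The windows differed in base composition. The share of G and C was 74.3% at Hoxd13, 55.0% at Hoxd12, 45.7% and 62.0% at Hoxd11, 62.7% at Hoxd10 and 68.3% at Hoxd9. It was 46.7% at Hoxd8, 39.7% at Hoxd4, 54.0% at Hoxd3 and 69.7% at Hoxd1, against a median of 52.7% over all windows. The Hoxd13 window held 37 CpG pairs, Hoxd12 13, Hoxd11 4 and 25, Hoxd10 22 and Hoxd9 20. The Hoxd8 window held 6, Hoxd4 4, Hoxd3 20 and Hoxd1 29, against a median of 7.

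The transcripts whose pattern over the 12 arrays was most like that of a HoxD gene were found by Pearson's correlation, as a description of arrays that share the 4 groups. For Hoxd13 they were Coch (r = 0.997), Xist (r = 0.995) and Hoxc8 (r = 0.994). For Hoxd11 they were Runx1 (0.995), Lrtm1 (0.995) and Adgra1 (0.995), and for Hoxd10 Lgi4 (0.998), Tenm3 (0.995) and Glipr2 (0.994). For Hoxd9 they were Egln3 (0.991), Igf2bp1 (0.990) and Des (0.989), and for Hoxd8 they were Hoxd13 (0.993), Coch (0.992) and Hoxc8 (0.990). Hoxd4 was closest to Hoxb8 (0.987), Irgq (0.975) and Hoxb9 (0.975), and Hoxd12 to Akr1c6 (0.984), Olfr74 (0.983) and Jph1 (0.978). Without WT vehicle replicate 1 the correlation of Hoxd4 with Hoxb8 was 0.987.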

How the data were processed

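The members and gene lists were chosen with earlier results of these data known. Cy3-labelled RNA of 12 samples was hybridised to 12 one-colour Agilent arrays. Per the file headers, the deposited intensity values are processed signals of Agilent Feature Extraction 9.5.3.1 (version 9.5 per the submitters' processing notes). The deposited series table held the same signals on the linear scale (largest difference 0). Each array's 75th percentile was subtracted on the log2 scale, outlier spots were left out, and spots of a probe were averaged. A probe was kept where all 3 arrays of some group read it well above background. R 4.3.3 and limma 3.58.1 fitted 1 coefficient per group over all 12 arrays, and p-values were Benjamini-Hochberg adjusted over all kept probes (called under 0.05). The procedure was tested on simulated data. The 4 slides come from the labels' barcodes. Every HoxD probe is named, and of each list up to 4 called genes with the smallest p. Some genes that this rule names are not reported here. Of the kept probes, 19953 were given a RefSeq symbol by accession, 4584 by symbol and 2140 by synonym, and 4258 kept the name in the file. The number of arrays limits the precision. Alternatives covered background correction, normalization, the filter, probes per gene, slide and replicate blocks, the samples in the fit and each array left out.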

Additional observations from a re-analysis of the deposited data

How the results depend on the processing

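The counts of HoxD probes called between genotypes (8 under vehicle, 8 under Dex, 9 over both) kept within 7 to 8, 7 to 8 and 7 to 9 under quantile normalization, no filter, slide blocks, the groups compared alone and normexp with outlying local backgrounds replaced, and were 6, 6 and 7 of 8 genes with 1 probe per gene. Leaving out 1 array gave 7 to 8, 8 to 9 and 8 to 9. Normexp on the local background as scanned, which reached 65361 on WT Dex replicate 3, gave 1, 0 and 1, and moved the median of all kept probes under Dex from 0.11 to -0.53. It turned the difference under Dex of Hoxd13 probe 1 to -0.17, Hoxd12 to -0.77, Hoxd11 to -0.40, Hoxd9 to -0.79 and -0.60, Hoxd8 to -0.27 and Hoxd4 to -0.37, that of Hoxd12 over both treatments to -0.0608 and the Dex change of Hoxd4 in WT to 1.52; the cause was not tested beyond the background values. With those backgrounds replaced, Hoxd13 kept 4.39 and 1.63 and Hoxd11 1.20, and Hoxd3 over both treatments was 0.00335. The slide as a fixed block turned Hoxd3 under vehicle to -0.50 and Hoxd12 under Dex to -0.20. The random block turned Hoxd3 under vehicle to -0.23. For Dex in WT the fixed block called 1 HoxD probe (Hoxd11, at background there), where 1253 of all kept probes were called. Leaving out arrays gave 0 to 2 for that comparison. Dex in GR-C3 and the interaction gave 0 in all settings run. The replicate block gave 8, 8 and 8 calls between genotypes. Same-numbered arrays correlated at -0.228 to 0.196, and 4 of 12 arrays correlated best with their own number. These correlations show no pairing by number, and they cannot tell whether same-numbered samples shared a culture or embryo. Probes near background (Hoxd11 and Hoxd13 probe 1 in WT, Hoxd3, Hoxd1) are limited by signal.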
